A study of Mus musculus with 44 samples.

Results

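The results below concern kidney RNA of Bmal1 knockout (KO) and wild-type (WT) mice at zeitgeber times (ZT) 20 and 0, the late night and the dawn of the light cycle. Bmal1 is the protein name of the gene Arntl. The samples were chosen by genotype, tissue and time as the labels give them, and not by any measured value. They are 8 of the 44 samples of the series, with 2 libraries each of WT at ZT20, WT at ZT0, KO at ZT20 and KO at ZT0. The 24 kidney RNA libraries of the series also cover ZT4, ZT8, ZT12 and ZT16, with 16 libraries at those times. All mice were of the 129SV strain, were 8 to 12 weeks old and received food at night only. Polyadenylated RNA was sequenced from whole kidney. The labels name the KO genotype without the deleted exon or the reach of the deletion, and do not say whether the replicates A and B of a group are separate animals. P-values therefore measure the spread between these libraries, which may be technical.

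ARNTL pairs with CLOCK or NPAS2, and the pair binds E-box sequences and switches on genes that include the Per and Cry repressors, the REV-ERB repressors Nr1d1 and Nr1d2, and the transcription factors Dbp, Tef and Hlf. PER and CRY proteins inhibit the pair, and the REV-ERB proteins repress Arntl, Npas2, Nfil3 and Cry1 through RORE sites. In the kidney this clock is known for daily rhythms of tubular salt, water and drug transport.

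The promoter sequences of clock genes show where this machinery can be read in DNA letters. RefSeq promoters (GRCm38.p6), each from 250 bases before to 50 after the annotated start, were found for 17 of the 19 genes of the clock lists. The E-box letters CACGTG, which read the same on both strands, occurred in 5 of those genes, namely Cry1, Ciart, Per1, Tef and Bhlhe41. They occurred in 7.15% of all 32851 promoters in the table. A gene was counted if any of its promoters held the motif, for both motifs, so counts of genes and shares of promoters are unlike measures. The D-box letters TTATGTAA, bound by DBP, TEF, HLF and NFIL3, were searched on both strands. They occurred in 1 clock gene, Per3, and in 0.938% of all promoters. Neither motif overlaps the other. The windows below lie upstream of the start, are written 5′ to 3′ on the strand of the gene, and have the motif in capitals. They are shown because these genes take different courses in the comparisons that follow. A match describes the letters only.
Cry1, chr10:85185085-85185138, minus strand: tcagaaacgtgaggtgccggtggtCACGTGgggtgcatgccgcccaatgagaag
Ciart, chr3:95882243-95882368, minus strand: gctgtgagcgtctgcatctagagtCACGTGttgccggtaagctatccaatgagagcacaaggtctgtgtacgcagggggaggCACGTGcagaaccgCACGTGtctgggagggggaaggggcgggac
Per1, chr11:69098759-69098812, plus strand: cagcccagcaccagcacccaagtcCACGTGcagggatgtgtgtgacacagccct
Tef, chr15:81802522-81802575, plus strand: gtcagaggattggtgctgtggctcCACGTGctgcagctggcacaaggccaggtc
Per3, chr4:151044792-151044894, minus strand: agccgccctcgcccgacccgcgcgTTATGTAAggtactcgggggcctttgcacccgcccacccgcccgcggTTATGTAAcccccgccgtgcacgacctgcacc
Ciart, a repressor of the clock, holds 3 E-boxes in its window, and Per3 holds 2 D-boxes. Tef has another promoter with an E-box, whose window at chr15:81811252-81811305 is not printed.

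Values are TPM, transcript abundances scaled to a fixed total, summed over the transcripts of a gene. TPM keeps no sequencing depth, so no counting error can be given. Mitochondrial genes held 38.0% to 40.2% of TPM in the 4 WT libraries and 37.2% to 39.4% in the 4 KO libraries. Processed and other pseudogenes held 9.82% to 10.3% in WT and 11.1% to 11.7% in KO. Kidney markers were present in all 8 libraries, with summed levels of 6 proximal tubule markers between 2154 and 2539 TPM in WT and between 2192 and 2424 TPM in KO. All 5 adrenal markers were below the filter. Means are given with the SD over the 4 libraries of a genotype, which spans both times.

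The targeted gene was lower in KO, and its transcripts remained. Arntl (ENSMUSG00000055116) lies on the plus strand of GRCm38 chromosome 7, from 113207465 to 113314126. In WT it stood at 12.9 and 12.4 TPM at ZT0 and at 9.38 and 8.24 TPM at ZT20. In KO it stood at 4.72 and 5.11 TPM at ZT0 and at 4.19 and 6.11 TPM at ZT20. Every KO library lay below every WT library. The difference, KO minus WT on the log2(TPM + 0.1) scale, was -1.07 (SE 0.15, adjusted p = 0.00351, limma with time as a covariate). Total TPM of the gene does not show which part was deleted.

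Across the transcriptome, 3764 of 12809 genes tested differed between KO and WT in this window, at an adjusted p under 0.05 (limma with Benjamini-Hochberg adjustment), which is 29.4%. As deposited, 3042 genes were higher in KO (23.7%) and 722 were lower (5.64%), and the median log2 difference of all genes was 0.12. When the libraries were rescaled by median-of-ratios factors, that median moved to 0.000623. The split then became 1220 higher (9.52%) and 1247 lower (9.74%). Small differences near 0.12 on the log2 scale thus depend on the scaling, and counts for the gene groups are given under both scalings where these differ. All 4 KO libraries lay above or below all 4 WT libraries in 4027 genes (31.4%). A log2 difference of at least 1 was called for 164 genes in the higher and 141 in the lower direction. The count of 3764 fell to 2292 when WT ZT0 replicate A was left out, to 2391 when its partner B was, and to 2368 when KO ZT0 replicate B was.

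Among the clock lists, 17 of 19 genes were tested. Of these, 5 rose in KO, 2 fell and 10 did not pass, which is 41.2% called against 29.4% of all genes. With median-of-ratios scaling 4 were higher and 4 lower. The activators, repressors and outputs of the loop are taken in turn.

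**Figure D1:**
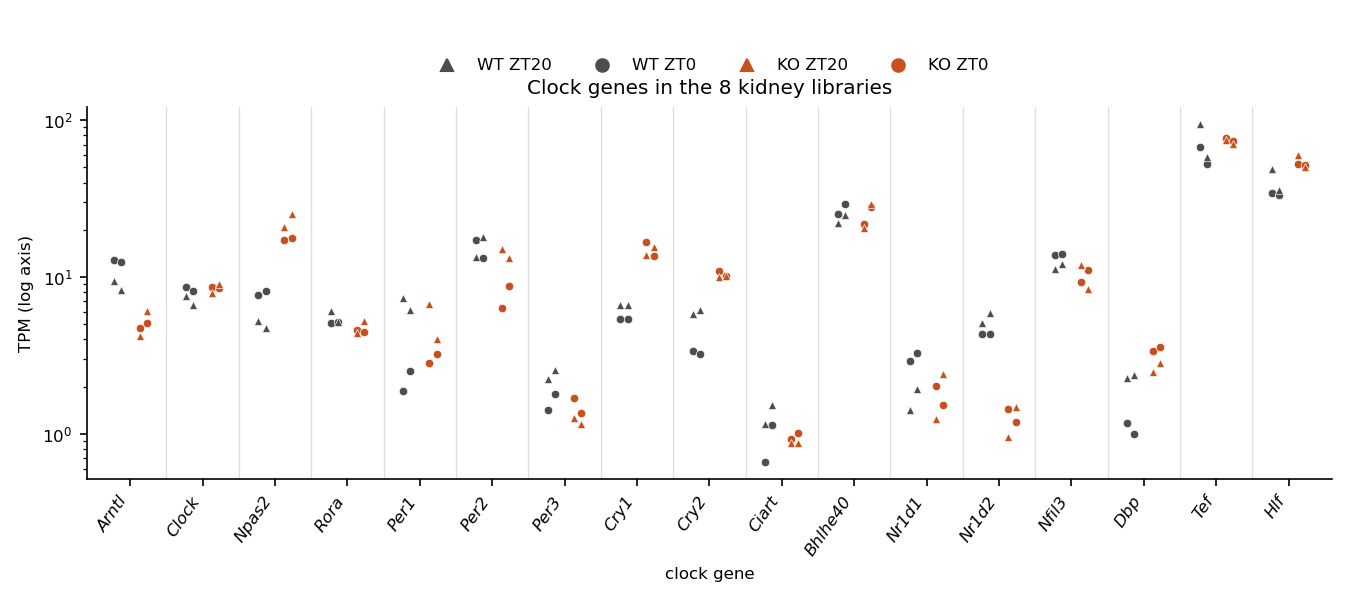
TPM on a log axis for the 17 clock genes tested, with 1 point per library, WT in grey and KO in orange, circles for ZT0 and triangles for ZT20. Npas2, Cry1 and Cry2 are higher in all 4 KO libraries, and Arntl and Nr1d2 are lower in all 4.

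Of the activators, Npas2 rose and Arntl fell. Npas2, which can replace CLOCK as the partner of ARNTL, was at 7.72 and 8.14 TPM in WT at ZT0 and at 5.27 and 4.71 TPM in WT at ZT20. In KO it was at 17.1 and 17.8 TPM at ZT0 and at 20.7 and 25.1 TPM at ZT20, a log2 difference of 1.65 (SE 0.21, adjusted p = 0.00242, limma). WT and KO did not overlap. Clock (7.75 TPM ± 0.865 in WT and 8.54 TPM ± 0.475 in KO, SD, n = 4 each) and Rora (5.38 TPM ± 0.48 and 4.66 TPM ± 0.412) did not pass the test. With median-of-ratios scaling Rora was also called lower in KO. Rorb was below the filter of a mean of 1 TPM.

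Both cryptochromes rose, and no period gene passed. Cry1 was at 5.43 and 5.39 TPM in WT at ZT0 and at 6.61 and 6.64 TPM in WT at ZT20. In KO it was at 16.7 and 13.6 TPM at ZT0 and at 13.8 and 15.5 TPM at ZT20. The KO values were 2.48 times the WT values by means, and the log2 difference was 1.30 (SE 0.10, adjusted p = 0.000306, limma). The E-box window of Cry1 printed above thus belongs to a gene whose RNA was higher in KO at both times. Cry2 was at 3.38 and 3.22 TPM in WT at ZT0 and at 5.77 and 6.11 TPM at ZT20, while the 4 KO libraries lay between 10.0 and 11.0 TPM. Its log2 difference was 1.20 (SE 0.17, adjusted p = 0.00351, limma), and every KO library stood above every WT library. Per1 stood at 1.87 and 2.52 TPM in WT at ZT0 and at 7.33 and 6.20 TPM in WT at ZT20. The same order held in KO, with 2.82 and 3.22 TPM at ZT0 and 6.76 and 4.03 TPM at ZT20. The genotypes overlapped for Per1, with a log2 difference of 0.05 (SE 0.23, adjusted p = 0.895, limma) that was -0.07 with median-of-ratios scaling. Per2 was at 17.3 and 13.3 TPM in WT at ZT0 and at 6.37 and 8.82 TPM in KO, while at ZT20 WT (13.4 and 18.1 TPM) and KO (15.0 and 13.3 TPM) overlapped. Its difference over both times missed the threshold (-0.57, SE 0.22, adjusted p = 0.0896, limma), while at ZT0 alone it passed (-1.01, adjusted p = 0.0306). Per3 (2.00 TPM ± 0.504 in WT and 1.36 TPM ± 0.228 in KO), Ciart (1.12 TPM ± 0.354 and 0.922 TPM ± 0.0672) and Bhlhe40 (25.5 TPM ± 2.96 and 24.8 TPM ± 4.34) did not pass. Bhlhe41 was below the filter.

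Among the REV-ERB genes, Nr1d2 fell in this window and Nr1d1 did not pass. Nr1d2, which encodes REV-ERB beta, stood at 4.32 and 4.33 TPM in WT at ZT0 and at 5.10 and 5.93 TPM at ZT20. In KO it stood at 1.45 and 1.19 TPM at ZT0 and at 0.956 and 1.48 TPM at ZT20, so the genotypes did not overlap. Its log2 difference was -1.88 (SE 0.16, adjusted p = 0.000598, limma). Nr1d1, which encodes REV-ERB alpha, was low in both genotypes, at 2.91 and 3.28 TPM in WT and 2.02 and 1.53 TPM in KO at ZT0. At ZT20 it was at 1.42 and 1.93 TPM in WT and at 1.23 and 2.41 TPM in KO. It did not pass (-0.36, SE 0.26, adjusted p = 0.328, limma), and the difference between Nr1d1 and Nr1d2 was not itself tested. Nr1d1 passed in 1 of the 8 fits that left out 1 library, the fit without KO ZT20 replicate B (adjusted p = 0.0385, limma). Nfil3, the repressor at D-boxes, was at 12.8 TPM ± 1.32 in WT and 10.2 TPM ± 1.59 in KO, with an adjusted p of 0.0672 (limma) that became 0.0391 with median-of-ratios scaling.

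Of the activators at D-boxes, Hlf rose from 38.3 TPM ± 7.36 to 53.9 TPM ± 4.34, a log2 difference of 0.51 (SE 0.11, adjusted p = 0.0137, limma). Dbp was at its daily low in WT, at 1.17 and 0.989 TPM at ZT0 and at 2.26 and 2.36 TPM at ZT20. KO libraries held 3.36 and 3.57 TPM at ZT0 and 2.46 and 2.81 TPM at ZT20, so all 4 lay above all 4 WT values. The log2 difference of Dbp was 0.89 (SE 0.28, adjusted p = 0.0467, limma). This call was lost under median-of-ratios scaling (adjusted p = 0.0819). It was also lost without any 1 of WT ZT0 replicate A, WT ZT0 replicate B, WT ZT20 replicate A, KO ZT0 replicate A, KO ZT0 replicate B or KO ZT20 replicate B, with adjusted p-values up to 0.123. Tef was at 68.3 TPM ± 18.6 in WT and 73.9 TPM ± 2.79 in KO and did not pass. The other called clock genes, Arntl, Npas2, Cry1, Cry2, Nr1d2 and Hlf, passed in each of the 8 fits that left out 1 library.

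Among 12 genes often described as clock outputs, 3 rose, 3 fell and 6 did not pass, against 23.7% of all genes rising and 5.64% falling. With median-of-ratios scaling 2 rose and 3 fell, and 2 rose and 2 fell in every fit that left out 1 library. Cdkn1a, an inhibitor of the cell cycle, rose from 4.71 TPM ± 0.314 to 10.3 TPM ± 1.57, a log2 difference of 1.10 (SE 0.11, adjusted p = 0.00114, limma). Wee1, a kinase that holds cells before mitosis, fell by 0.53 on the log2 scale (SE 0.11), from 4.24 TPM ± 0.868 to 2.86 TPM ± 0.173. It lies within 10 Mb of Arntl, an interval that is counted apart below. Por, the electron donor of cytochrome P450 enzymes, was between 95.4 and 118 TPM in WT and between 81.1 and 85.4 TPM in KO.

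The 10 protein-coding genes with the largest positive differences were Bhmt, Slc7a12, Cox8b, Cfd, Aqp8, Cyp4a14, Loxl4, Gm6614, Prlr and Hao2. Hao2, a peroxisomal hydroxyacid oxidase, had among the smallest p-values. It was at 74.5 and 70.7 TPM in WT at ZT0, at 63.7 and 75.6 TPM in WT at ZT20, at 550 and 694 TPM in KO at ZT0 and at 613 and 680 TPM in KO at ZT20. KO was 8.91 times WT, a log2 difference of 3.15 (SE 0.09, adjusted p = 1.13e-05, limma). Bhmt, the enzyme that makes methionine from homocysteine and betaine, was between 0.872 and 1.55 TPM in WT. It was at 38.5 and 65.5 TPM in KO at ZT0 and at 88.9 and 68.6 TPM in KO at ZT20, a log2 difference of 5.54 (SE 0.28). Slc7a12, an amino acid transporter, was between 1.58 and 4.14 TPM in WT and between 65.1 and 115 TPM in KO. Both genes were low in every WT library and high in every KO library. Loxl4, which crosslinks collagen, rose from 1.11 TPM ± 0.126 to 12.6 TPM ± 2.05. Aqp8, a water channel, lay between 0.444 and 1.23 TPM in WT and between 6.54 and 18.9 TPM in KO. Prlr, the prolactin receptor, lay between 2.21 and 5.98 TPM in WT and between 29.0 and 51.6 TPM in KO. Cyp4a14, a fatty acid hydroxylase, spread more widely, from 5.50 to 37.2 TPM in WT and from 104 to 315 TPM in KO.

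Cox8b and Cfd differed among the KO libraries. Cfd, an adipocyte protease of the complement system, was at 16.1 and 19.8 TPM in KO at ZT0 and at 7.92 and 0.812 TPM in KO at ZT20, against 0.102 to 0.448 TPM in WT. Cox8b, a cytochrome oxidase subunit of brown fat and muscle, was at 13.5, 7.78, 4.51 and 0.219 TPM in the same KO libraries. It was listed at 0 in 3 WT libraries and at 0.111 TPM in the fourth. Cfd and Cox8b thus reached the filter through the KO libraries alone. The size of their log2 differences, and so their rank, depends on the pseudocount. The call of Cox8b was lost without WT ZT0 replicate A (adjusted p = 0.0513, limma). The summed level of 4 adipocyte markers (Adipoq, Plin1, Cidec and Ucp1) was likewise higher in KO at ZT0 than at ZT20 and lowest in KO ZT20 replicate B. It was 15.1 and 13.9 TPM in KO at ZT0, 7.38 and 0.291 TPM in KO at ZT20, and 0.171 to 0.543 TPM in WT. Of these, 3 were tested and 2 rose, Adipoq and Cidec. With a WT sum of at most 0.543 TPM, they reached the filter through the KO libraries alone, so these calls are no separate support. Adipoq passed in 3 and Cidec in 2 of the 8 fits that left out 1 library. Adipoq was lost without WT ZT0 replicate A, WT ZT0 replicate B or KO ZT20 replicate A. Cidec was lost without WT ZT0 replicate A, WT ZT0 replicate B or WT ZT20 replicate A, with adjusted p-values up to 0.0722 (limma). In the remaining fits these genes were below the filter and not tested. In KO ZT20 replicate B, where the adipocyte sum was within the WT range, Bhmt was at 68.6 TPM, Slc7a12 at 115 TPM, Hao2 at 680 TPM, Cry1 at 15.5 TPM and Npas2 at 25.1 TPM. The part of adipose RNA in other differences was not tested.

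**Figure D2:**
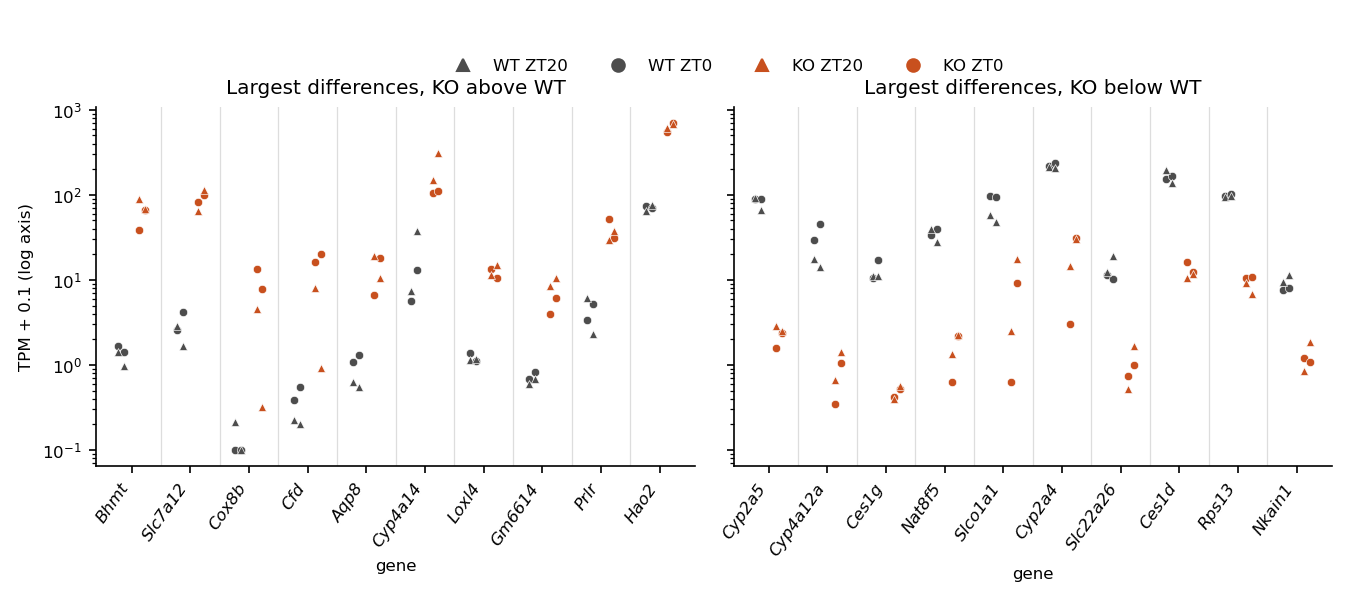
TPM + 0.1 on a log axis for the 10 protein-coding genes with the largest positive and the 10 with the largest negative log2 differences, with 1 point per library. Hao2, Bhmt and Rps13 separate the genotypes with little spread, while Cox8b, Cfd and Slco1a1 spread widely among the 4 KO libraries.

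The 10 largest negative fitted differences were those of Cyp2a5, Cyp4a12a, Ces1g, Nat8f5, Slco1a1, Cyp2a4, Slc22a26, Ces1d, Rps13 and Nkain1, of which Rps13 has an uncertain direction and is taken up apart. Cyp2a5, a cytochrome P450, was at 88.3 and 88.2 TPM in WT at ZT0, at 92.7 and 65.5 TPM in WT at ZT20, at 1.47 and 2.29 TPM in KO at ZT0 and at 2.75 and 2.43 TPM in KO at ZT20. WT was 37.4 times KO, a log2 difference of -5.18 (SE 0.20, adjusted p = 1.8e-05, limma). Its near copy Cyp2a4 was between 204 and 234 TPM in WT and between 2.90 and 30.7 TPM in KO. Since the copies can share reads, their sum is the firmer value, and it went from 300.3 TPM ± 21.9 to 21.7 TPM ± 13.7 (SD, n = 4 each). The carboxylesterases Ces1d and Ces1g together went from 175 TPM ± 24.4 to 12.9 TPM ± 2.4. Cyp4a12a with Cyp4a12b went from 31.9 TPM ± 13.6 to 1.74 TPM ± 1.34. The family sum moved with the named gene in each of these 3 pairs. Nat8f5, an acetyltransferase-like gene of a tandem family, was between 28.0 and 39.9 TPM in WT and between 0.523 and 2.17 TPM in KO, while Nat8f1 to Nat8f7 together went from 497 TPM ± 31.0 to 278 TPM ± 16.2. Slco1a1, an organic anion transporter, was between 48.3 and 96.1 TPM in WT and at 0.530, 9.16, 2.42 and 17.7 TPM in KO. Its call (adjusted p = 0.038, limma) was lost without either WT ZT0 library, either WT ZT20 library, KO ZT0 replicate B or KO ZT20 replicate A, with adjusted p-values up to 0.106.

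Rps13 was lower in KO and its processed pseudogene higher. Rps13, a protein of the small ribosomal subunit, was between 93.8 and 103 TPM in WT and between 6.70 and 10.9 TPM in KO, a log2 difference of -3.41 (SE 0.11, adjusted p = 1.13e-05, limma). The processed pseudogene Rps13-ps1 on chromosome 8 was between 0.301 and 1.01 TPM in WT and between 289 and 317 TPM in KO. The sum of Rps13 and Rps13-ps1 went from 98.4 TPM ± 3.98 to 306 TPM ± 11.8. How reads were divided between the gene and its pseudogene cannot be seen in the deposited values, so the direction of Rps13 itself is uncertain. Rps13 lies 3.07 Mb from Arntl on chromosome 7. Gm6300, an unprocessed pseudogene of chromosome 3, also separated the genotypes, with 48.6 to 61.2 TPM in WT and 0.0828 to 0.359 TPM in KO.

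The neighbourhood of Arntl was counted apart. Of 121 tested genes within 10 Mb of Arntl, 37 were higher and 19 lower in KO, which is 46.3% called. Of the other 802 tested genes of chromosome 7, 28.8% were called, and the difference between the shares was not tested. Umod, Scnn1b and Scnn1g, described next, lie in this interval at 6.21, 8.63 and 8.49 Mb from Arntl. Wee1, described above, lies in it at -3.13 Mb, on the side of lower coordinates. The part of this neighbourhood in the differences of these genes was not tested.

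The male-high and female-high genes of the mouse kidney, which respond to sex hormones, moved apart between the genotypes. All 4 Y-linked genes of the list were expressed in all 8 libraries, with summed levels between 48.0 and 55.4 TPM in WT and between 54.8 and 58.9 TPM in KO. Of 5 male-high genes, 4 fell (Kap, Odc1, Cyp2e1 and Slco1a1), against 5.64% of all genes, and 3 did with median-of-ratios scaling. Odc1, the first enzyme of polyamine synthesis, fell by 1.53 on the log2 scale (SE 0.10) and Kap, an androgen-regulated kidney protein, fell by 0.82 (SE 0.16). Kap and Odc1 passed in each fit that left out 1 library, whereas Cyp2e1 passed in 1 of the 8. The fifth, Cyp4b1, averaged 1360.0 TPM in WT and 319 TPM in KO and did not pass (adjusted p = 0.0884, limma). The male-high sum was between 32703 and 42869 TPM in WT and between 16487 and 26483 TPM in KO. The female-high genes Prlr and Slc7a12 both rose, and their sum was between 3.79 and 9.30 TPM in WT and between 94.1 and 153 TPM in KO. KO ZT0 replicate A had the lowest male-high sum and the lowest Slco1a1 and Cyp2a4. Cyp2a4, Slco1a1 and Slc7a12 stand both among the largest differences and in, or beside, these sex-dependent groups, and the part of hormone state in the other differences was not tested.

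**Figure D3:**
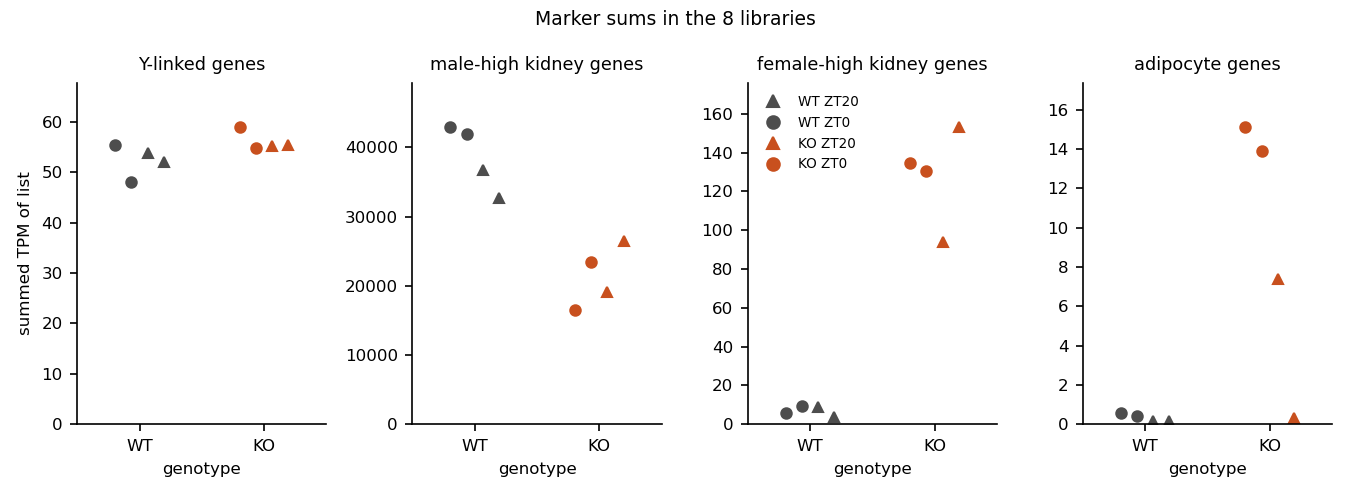
Summed TPM of 4 marker lists in each library, on axes that start at 0. Y-linked sums lie between 48.0 and 58.9 TPM in all 8 libraries, male-high sums are lower in all 4 KO libraries, female-high sums are higher in all 4, and the adipocyte sum is above the WT range in 3 of the 4 KO libraries.

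Genes of salt reabsorption were mostly higher in KO. Of 12 genes of sodium transport, 9 rose, 1 fell and 2 did not pass, against 23.7% of all genes rising. The list median was 0.44 on the log2 scale, beside 0.12 for all genes. With median-of-ratios scaling 6 rose and 1 fell, and 6 rose and 1 fell in every fit that left out 1 library. Slc12a1, the sodium-potassium-chloride cotransporter NKCC2 of the thick ascending limb, was at 253 and 233 TPM in WT at ZT0 and at 267 and 246 TPM in WT at ZT20. In KO it was at 445 and 428 TPM at ZT0 and at 390 and 369 TPM at ZT20, a log2 difference of 0.70 (SE 0.07, adjusted p = 0.001, limma). WT and KO were well apart at both times. Slc12a3, the thiazide-sensitive cotransporter NCC, was between 149 and 191 TPM in WT and between 225 and 297 TPM in KO. Kcnj1, the potassium channel ROMK, was between 65.4 and 76.2 TPM in WT and between 109.6 and 116 TPM in KO. These 2 genes did not overlap between genotypes. The epithelial sodium channel subunits also rose: Scnn1b from 15.3 TPM ± 0.923 to 26.5 TPM ± 2.00, Scnn1g from 12.5 TPM ± 1.39 to 18.5 TPM ± 2.46 and Scnn1a from 34.8 to 46.8 TPM by means. Umod, the uromodulin of the thick ascending limb, fell from 1332 TPM ± 98.5 to 907 TPM ± 75.7, a log2 difference of -0.56 (SE 0.08, adjusted p = 0.00336, limma). The ascending limb genes thus did not move in 1 direction.

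Regulators of these transporters followed in part. Of 10 aldosterone and WNK pathway genes, 6 rose and none fell, against 23.7% of all genes rising, with a median of 0.41. With median-of-ratios scaling 3 rose. Nedd4l, Wnk4 and Nr3c2 lost their calls without WT ZT0 replicate B, WT ZT20 replicate A or KO ZT20 replicate A, which leaves 3 of the 6. Klhl3, the adaptor that marks WNK kinases for degradation, was between 4.32 and 5.84 TPM in WT and between 8.70 and 10.6 TPM in KO (0.90 on the log2 scale, SE 0.07, adjusted p = 0.000321, limma). Stk39, the kinase SPAK that activates NCC and NKCC2, rose from 15.2 TPM ± 0.53 to 20.7 TPM ± 0.731. Wnk1, the kinase upstream of SPAK, rose from 171 TPM ± 25.7 to 239 TPM ± 7.4. Sgk1, an aldosterone-induced kinase, averaged 42.2 and 55.5 TPM and did not pass. Of 9 aquaporins and vasopressin receptors, 4 rose and 1 fell under both scalings. Aqp2, the water channel set by vasopressin, was at 128 and 155 TPM in WT at ZT0 and at 135 and 148 TPM in WT at ZT20. In KO it was at 272 and 268 TPM at ZT0 and at 236 and 171 TPM at ZT20 (0.72 on the log2 scale, SE 0.13, adjusted p = 0.00858, limma). Avpr2, the vasopressin receptor of the collecting duct, rose from 12.9 TPM ± 0.962 to 22.0 TPM ± 3.71, and Avpr1a from 4.86 TPM ± 0.333 to 8.90 TPM ± 1.01. Within KO, the lowest Aqp2 and Avpr2 values were those of KO ZT20 replicate B. The call of Aqp11, the member that fell, was lost in 7 of the 8 fits that left out 1 library.

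Segment markers share members with the lists above, so their counts are no separate evidence. Of all genes 23.7% rose and 5.64% fell, or 9.52% and 9.74% with median-of-ratios scaling. Counts below of 1 of 4 or 1 of 5 rising are thus near the share of all genes as deposited. All 5 principal cell markers (Aqp2, Aqp3, Avpr2, Scnn1g and Fxyd4) rose, and their sum was between 224 and 251 TPM in WT and between 289.6 and 427 TPM in KO. Of 5 intercalated cell markers 3 rose (1 without WT ZT0 replicate B, WT ZT20 replicate A or KO ZT20 replicate A), of 4 distal convoluted tubule markers 1 rose, and of 5 podocyte markers 2 rose. With median-of-ratios scaling these counts became 4, 1, 1 and 0 in the same order. In RNA of whole tissue, more cells of a type and more RNA per cell cannot be told apart. Proximal tubule markers gave 1 higher and 1 lower of 6, neither of which passed in every fit that left out 1 library. Markers of fibroblasts and blood had no call in either direction (limma, with 0 of 4 and 3 of 4 at an unadjusted p under 0.05), 1 of 5 immune markers, Csf1r, fell, and 1 of 5 endothelial markers (Pecam1) and 1 of 2 tested urothelial markers (Upk1b) rose. With median-of-ratios scaling the proximal tubule counts became 0 higher and 1 lower, 2 immune markers fell and no endothelial marker rose. Pecam1 passed in 1 and Upk1b in 4 of the 8 fits that left out 1 library.

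Drug and organic ion transporters went in both directions, with more falling than rising. Of 13 tested, 6 fell, 2 rose and 5 did not pass, against 5.64% of all genes falling, and 7 fell and 1 rose with median-of-ratios scaling. Slc22a5, Slc22a6 and Slc22a12 lost their calls without WT ZT0 replicate A, WT ZT0 replicate B or KO ZT20 replicate A, which leaves 3 of the 6. Slc22a7, the organic anion transporter OAT2, was at 117 and 99.4 TPM in WT at ZT0 and at 115 and 93.3 TPM in WT at ZT20. In KO it was at 43.7 and 19.6 TPM at ZT0 and at 14.3 and 19.6 TPM at ZT20 (-2.25, SE 0.29, adjusted p = 0.00304, limma). Slc22a2, the organic cation transporter OCT2, fell from 136 TPM ± 9.79 to 95.1 TPM ± 6.81, and Slc22a8, OAT3, from 106 TPM ± 6.67 to 84.5 TPM ± 5.79. Abcb1b, a P-glycoprotein efflux pump, moved the other way, from 1.11 TPM ± 0.277 to 6.18 TPM ± 1.94 (2.36, SE 0.25, adjusted p = 0.00122, limma). Mouse OAT2 and OCT2 are themselves sex-dependent in the kidney. Of 8 glucose genes 2 rose, Slc2a1 (the glucose carrier GLUT1, 20.7 TPM ± 0.973 and 34.7 TPM ± 2.01) and Slc5a2, against 23.7% of all genes rising. With median-of-ratios scaling 1 rose, and of the pair only Slc2a1 passed in every fit that left out 1 library.

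Lipid genes fell in part. Of 13 genes of fatty acid oxidation and PPAR response 6 fell and 1 rose, under both scalings. Of all genes 5.64% fell, and 9.74% with median-of-ratios scaling. The list median was -0.49, beside 0.12 for all genes. Cpt1a and Slc25a20 lost their calls when either WT ZT0 library was left out, and the other 4 that fell passed in each of the 8 fits. Angptl4, an inhibitor of lipoprotein lipase, was at 5.26 and 7.37 TPM in WT at ZT0 and at 11.1 and 25.2 TPM in WT at ZT20, and at 2.04, 1.17, 1.14 and 2.40 TPM in the KO libraries. Acadm, a dehydrogenase of medium-chain fatty acids, fell from 415 TPM ± 19.2 to 307 TPM ± 30.0, and the lipid droplet protein Plin2 from 47.4 TPM ± 6.6 to 31.3 TPM ± 3.41. Cyp4a14 was the member that rose, so the PPAR genes went in both directions. The sum of this list was between 1148 and 1475 TPM in WT, between 938 and 1028 TPM in 3 KO libraries and 1848 TPM in KO ZT20 replicate B. Against the 4 WT libraries, that library alone gave a list median of -0.03, beside 0.096 for all genes. Of 10 sterol synthesis genes 2 fell (Cyp51 and Hmgcs1) and none rose, against the same 5.64% of all genes falling. Hmgcs1, which condenses acetyl groups early in the pathway, was between 169 and 186 TPM in WT and between 95.6 and 148 TPM in KO (-0.46, SE 0.13, adjusted p = 0.033, limma). Neither gene passed in every fit that left out 1 library, with 4 of 8 fits for Cyp51, 2 of 8 for Hmgcs1 and adjusted p-values up to 0.0886. Cyp51 was lost without WT ZT0 replicate A, KO ZT0 replicate B or either KO ZT20 library. Hmgcs1 was lost without any 1 of the WT libraries or of the KO ZT0 libraries. Me1, the malic enzyme that supplies NADPH, fell from 198 TPM ± 13.4 to 109 TPM ± 18.6.

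Most other lists held few calls. Their counts stand beside 23.7% of all genes rising and 5.64% falling, or 9.52% and 9.74% with median-of-ratios scaling. Both cold-inducible RNA-binding protein genes rose, Rbm3 from 50.9 TPM ± 6.2 to 79.3 TPM ± 2.76 and Cirbp from 24.7 TPM ± 5.2 to 41.0 TPM ± 7.62. Cirbp lost its call without WT ZT0 replicate A or WT ZT0 replicate B, with adjusted p-values up to 0.0589 (limma). Of 12 heat shock genes 2 fell (Hspd1 and Hsp90aa1) and 4 did with median-of-ratios scaling, and of 15 endoplasmic reticulum chaperone genes 1 fell, Xbp1, and 2 did with median-of-ratios scaling. Hsp90aa1 passed in 4 of the 8 fits that left out 1 library and Xbp1 in 1 (adjusted p-values up to 0.11, limma). No interferon-stimulated gene (8 tested) and no gene of antigen presentation (7 tested) passed in limma, with 0 and 1 at an unadjusted p under 0.05, while with median-of-ratios scaling 2 of the latter fell. Of 4 tested tubular injury markers Clu rose, from 115 TPM ± 14.6 to 232 TPM ± 20.1, and with median-of-ratios scaling Vcam1 also fell. Of 13 mitochondrially encoded proteins 6 fell and 10 did with median-of-ratios scaling, led by mt-Nd2 (-0.34, SE 0.04, adjusted p = 0.00129, limma).
Glucocorticoid-responsive genes gave 2 higher (Mt1 and Mt2) and 1 lower (Fkbp5) of 9, which became 1 higher and 3 lower with median-of-ratios scaling. Antioxidant targets gave 2 higher and 1 lower of 9, which became 0 higher and 3 lower. Immediate early genes gave 1 higher of 6 (Btg2), which became 1 lower (Jun). The balance of these 3 lists thus turned with the scaling. The feeding list gave 1 lower of 10 (Irs2) and collagen and matrix genes 1 higher of 8, under both scalings. Fatty acid synthesis gave 2 higher and 1 lower of 8, which became 1 and 1. The deposited counts of 2 of 9, 1 of 6, 1 of 8 and 2 of 8 higher are near or below the 23.7% of all genes that rose. No call in the glucocorticoid, immediate early or feeding lists passed in every fit that left out 1 library, and of the antioxidant and fatty acid synthesis lists Gclm and Me1 alone did.

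**Figure D4:**
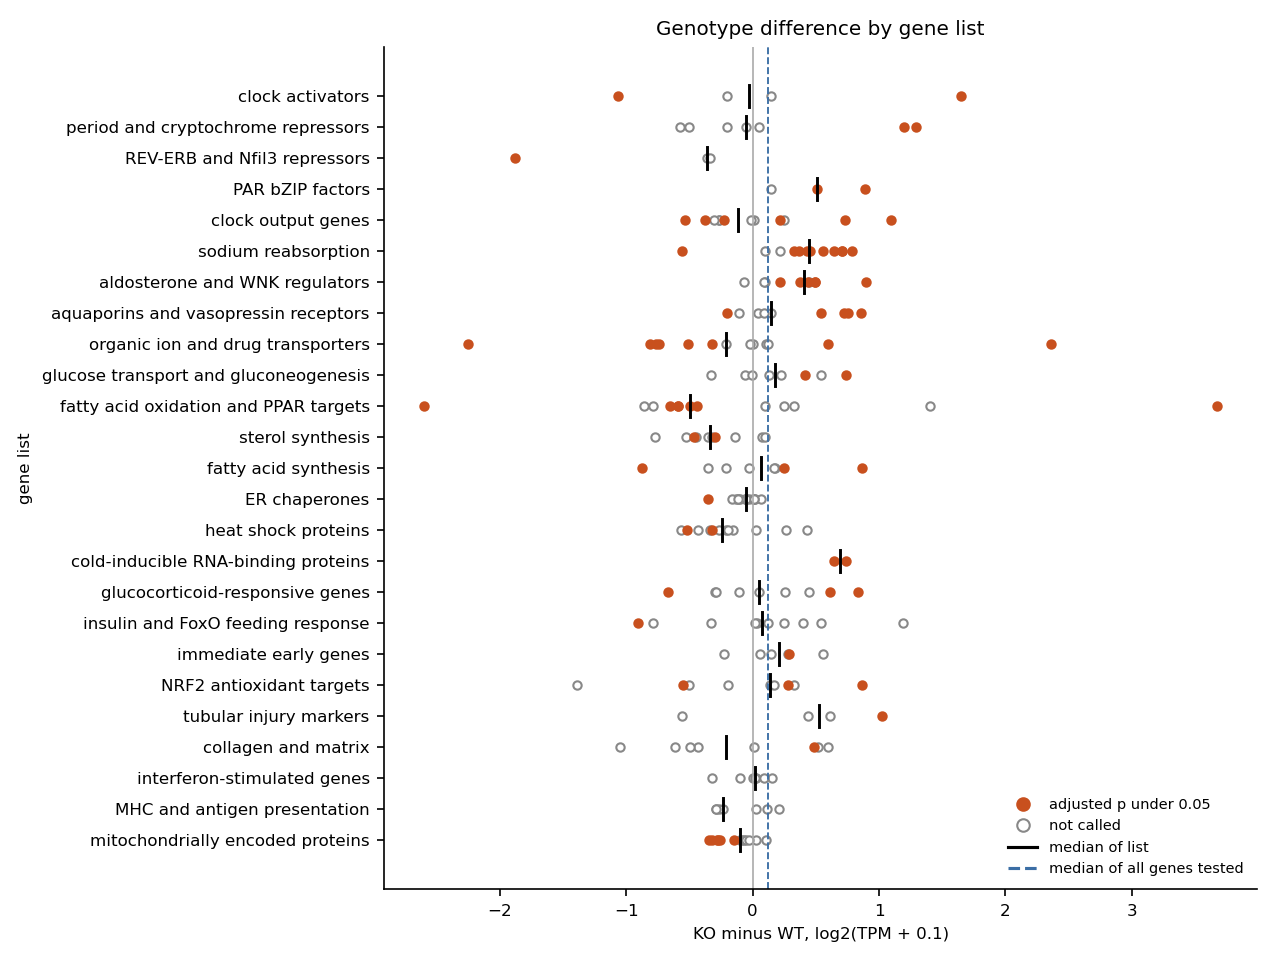
KO minus WT on the log2(TPM + 0.1) scale for each tested member of 25 gene lists, filled where the adjusted p is under 0.05, with the list median as a black bar and the median of all genes as a dashed line. Sodium reabsorption and the WNK list lie mostly to the right, and fatty acid oxidation mostly to the left with Cyp4a14 apart.

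The 2 times were also taken singly, with 2 libraries against 2 and a spread shared by the 4 groups. At ZT20, 794 genes were called (6.2%), of which 566 were higher in KO. At ZT0, 2004 genes were called (15.6%), of which 1653 were higher. With median-of-ratios scaling 562 were called at ZT20, of which 269 were higher, and 1098 at ZT0, of which 524 were higher. The excess of higher genes at each time thus depends on the scaling. As deposited, both times called 630 genes, which is 79.3% of the ZT20 calls and 31.4% of the ZT0 calls, and 628 of them had the same sign. The larger count at ZT0 does not show that the genotype effect was larger there. The count at ZT0 was 205 without WT ZT0 replicate A, 260 without WT ZT0 replicate B, 437 without KO ZT0 replicate A and 1120 without KO ZT0 replicate B. The count at ZT20 was 334, 342, 161, 102, 349 and 175 without WT ZT0 replicates A and B, WT ZT20 replicates A and B, and KO ZT20 replicates A and B, in that order.

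The difference between the times was tested itself, and 1 gene passed (0.00781%), with 769 at an unadjusted p under 0.05. This gene, Gm21028, was listed at 0 in both WT libraries at ZT0, at 7.72 and 7.87 TPM in WT at ZT20, at 15.9 and 21.4 TPM in KO at ZT0 and at 22.9 and 15.2 TPM in KO at ZT20. It is a predicted gene of chromosome 7, from 42578466 to 42578588 on the minus strand. The genotype difference was 6.28 log2 units larger at ZT0 (SE 0.31, adjusted p = 0.00375, limma), a size that depends on the pseudocount. No gene passed without WT ZT20 replicate B. Over the day Gm21028 was also listed at 0 in WT ZT12 replicate A, KO ZT8 replicate A and KO ZT12 replicate A. Its lowest value above 0 was 6.61 TPM, and WT at ZT8 held 30.1 and 38.0 TPM. In so short a gene such steps can rest on few reads, which TPM does not show. Neither the size nor the SE of its change is therefore firm. The next smallest p-values were those of Gm15068 and Gm15069, predicted genes of chromosome X with the same values in every library, which did not pass (adjusted p = 0.0975). No clock gene passed this test. Cry2 differed by 1.65 at ZT0 and 0.75 at ZT20 (adjusted p of the change 0.261, limma). Dbp differed by 1.60 and 0.18 (0.293), and Npas2 by 1.13 and 2.17 (0.347).

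The window was then compared with the rest of the day, over all 24 libraries. The genotype difference at ZT20 and ZT0 differed from that at ZT4, ZT8, ZT12 and ZT16 in 15 of 12874 genes (0.117%), with 1083 at an unadjusted p under 0.05. In 8 genes the difference was more positive in the window and in 7 more negative. Clock genes were 7 of the 15, namely Arntl, Dbp, Nfil3, Per3, Ciart, Tef and Npas2. Slc16a1 and Leo1 from the output list, and Apoc1, Ndrg1, Mtr, Zbtb25, Cidea and Dgat2, made up the others.

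Arntl, Nfil3, Npas2 and Slc16a1 were near their WT peak in the window. Arntl in WT was at 0.690 and 0.527 TPM at ZT8 and at 0.295 and 0.527 TPM at ZT12, whereas KO stayed between 4.19 and 6.28 TPM at all 6 times. KO was thus below WT at ZT20 and ZT0 and above it at ZT8, ZT12 and ZT16, and the window minus the rest was -3.10 (SE 0.19, adjusted p = 3.58e-07, limma). Nfil3 in WT was at 13.8 and 14.0 TPM at ZT0 and at 0.567 and 0.746 TPM at ZT12, against 9.31 and 11.1 TPM at ZT0 and 19.97 and 12.5 TPM at ZT12 in KO. Its genotype difference was -0.34 in the window and 2.69 in the rest. Npas2 was higher in KO in both, by 1.65 in the window and by 4.06 in the rest. Slc16a1, the lactate carrier MCT1, was between 14.6 and 18.7 TPM in WT in the window and at 3.97 and 4.15 TPM in WT at ZT12, while KO lay between 17.7 and 26.7 TPM at all 6 times.

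Dbp, Per3, Ciart and Tef were near their WT trough in the window. Dbp in WT reached 56.1 and 65.2 TPM at ZT8 and 71.2 and 51.4 TPM at ZT12, and KO was at 2.71 and 4.20 TPM at ZT8 and at 3.23 and 3.46 TPM at ZT12. The genotype difference of Dbp was 0.89 in the window and -2.91 in the rest, a change of 3.80 (SE 0.23, adjusted p = 3.58e-07, limma). Per3 in WT was between 1.41 and 2.56 TPM in the window and at 10.9 and 10.1 TPM at ZT12, when KO was at 1.92 and 2.02 TPM. Ciart in WT was at 20.3 and 11.8 TPM at ZT12, and KO was at 1.88 and 0.794 TPM. Tef in WT was at 228 and 170 TPM at ZT12, and KO at 76.0 and 85.5 TPM. For these 4 genes WT was above KO from ZT8 to ZT16. In the window the differences were smaller, though Dbp was higher in KO at ZT0 (1.60 on the log2 scale, adjusted p = 0.00379, limma) and Per3 lower in KO at ZT20 (-0.93, adjusted p = 0.0393). These genes include the E-box genes Ciart and Tef and the D-box gene Per3 whose windows are printed above.

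**Figure D5:**
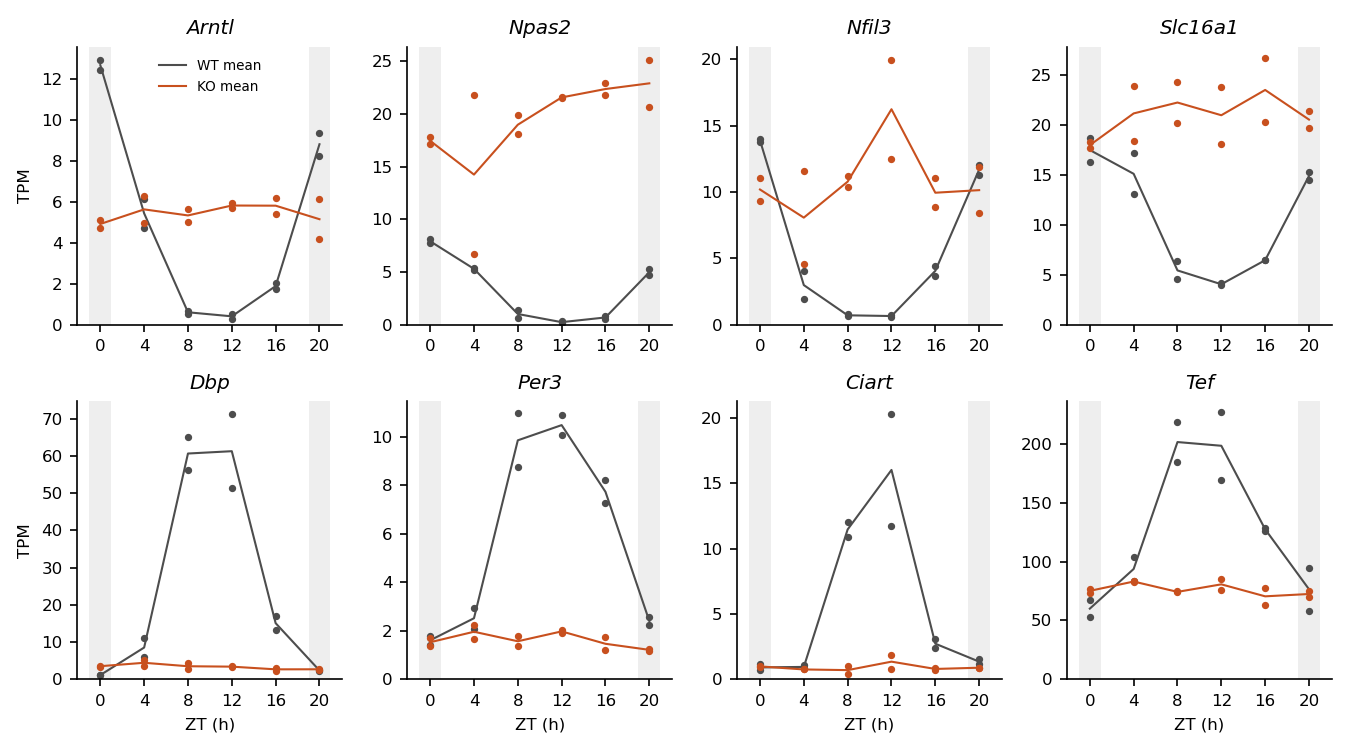
TPM of 8 genes against ZT in hours, with points for libraries and lines for the mean of 2 libraries, WT in grey and KO in orange. Grey bands mark ZT0 and ZT20, where Arntl is higher in WT, and where the genotypes lie nearer to each other than at ZT12 for Nfil3, Dbp, Ciart and Tef.

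Some of the 15 genes came with values that bear on their reading. Cidea, a lipid droplet protein of brown fat, was at 4.38, 2.77, 2.25 and 0.0923 TPM in the KO libraries of the window, in the order of ZT0 A, ZT0 B, ZT20 A and ZT20 B. The adipocyte marker sum had the same order there, and at the other 4 times it was between 1.02 and 21.4 TPM in the 8 WT libraries and between 0.0848 and 11.9 TPM in the 8 KO libraries. The part of adipose RNA in Cidea was not tested. The library labelled KO ZT4 replicate A had Rps13 at 90.0 TPM, Rps13-ps1 at 0.416 TPM and Gm6300 at 42.2 TPM, values within or near those of the WT window libraries and far from those of the KO window libraries. Without it 44 genes passed, among them all 15. The additional 29 included Cry1 (-1.52), Nr1d1 (2.59) and Nr1d2 (1.59). The library labelled KO ZT12 replicate A had a Y-linked sum of 3.31 TPM, and 17 genes passed without it. The count was 33 without KO ZT4 replicate B, 32 without KO ZT12 replicate B, 9 without KO ZT20 replicate A and 10 without WT ZT0 replicate A or WT ZT4 replicate B. Against ZT8, ZT12 and ZT16 only, 43 genes passed, again with all 15 among them.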

How the data were processed

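The authors deposited TPM per transcript, quantified with kallisto 0.42.4, with mm10 and GRCm38 named as builds, per the submitters' processing notes. The index and annotation release are not given in the sources used here. TPM totals were between 999999.2 and 1000000.6 per library, so depth is unknown. Of 88198 transcripts, 86119 were summed to genes through GENCODE M21, and 2079 did not match. Values were analysed as log2(TPM + 0.1) for genes averaging 1 TPM or more. The fits used limma 3.58.1 under R 4.3.3, with lmFit and a robust, trended eBayes, and Benjamini-Hochberg adjustment over all genes tested. The genotype model had time as a covariate. Single times and their difference used 4 group means, and the comparison with the other times used 12 group means over 24 libraries. All tests were two-sided. The fits were tested on simulated data.

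The named genes were Arntl, the 4 clock lists, the 10 largest differences in each direction (protein-coding, called, groups not overlapping, at least 5 TPM in the higher genotype), the 3 smallest p-values of the time difference, the 6 smallest of the window difference and up to 4 genes of each other list by p-value. Other genes were chosen after their values were seen. Members and lists were chosen with earlier results of these data known. Alternatives covered pseudocounts of 1 and 0.01, the filter (none, or 5 TPM), scaling, the moderation, the replicate block, the covariate, the libraries in the fit and each library left out. The 4C-seq files of the series were not used. Xist was not analysed here, and some genes of the lists are not reported here.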

Additional observations from a re-analysis of the deposited data

Results flagged for a closer look

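These genes are listed because the genotype difference changed between times by a test of that change (limma over all genes, adjusted p under 0.05). Between ZT0 and ZT20 the change was 6.28 log2 units for Gm21028, which was listed at 0 in both WT ZT0 libraries. As given above, the values of this short gene can rest on few reads.

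Between the window of ZT20 and ZT0 and the other 4 times, the change in log2 units was -3.10 for Arntl, 3.80 for Dbp, -3.03 for Nfil3, 1.41 for Per3, 2.17 for Ciart, 1.09 for Tef and -2.41 for Npas2. Among the genes outside the core clock it was -1.42 for Slc16a1, -0.75 for Leo1 (a subunit of the PAF1 transcription complex), 2.24 for Apoc1 (an apolipoprotein), -1.06 for Ndrg1, -0.59 for Mtr (methionine synthase), 0.77 for Zbtb25, 5.96 for Cidea and 0.50 for Dgat2 (the last enzyme of triglyceride synthesis). Apoc1 in KO was at 3.68 and 4.83 TPM at ZT0 and at 1.09 and 0.619 TPM at ZT4, with WT at 1.10 and 0.748 TPM and at 3.26 and 3.09 TPM. The adipocyte marker sum in KO was 15.1 and 13.9 TPM at ZT0 and 0.972 and 0.0848 TPM at ZT4. In KO at ZT20, Apoc1 was at 2.12 and 2.92 TPM beside sums of 7.38 and 0.291 TPM, the opposite order. The part of adipose RNA in Apoc1 was not tested. Mtr was lower in KO in the window, by 0.30 on the log2 scale, and higher in the rest, by 0.30.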

How the results depend on the processing

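The count of genes differing by genotype (3764) became 2467 with median-of-ratios scaling and 297 with KO ZT20 replicate B as the only KO library, an alternative chosen after seeing the data in which the lone library is assumed to vary like the others. Leaving out 1 library gave 2292 to 3526. The time difference (1 gene) gave 6 with a pseudocount of 1, 2 with 0.01, 7 without a filter, 7 without trend and robust options and 2 with all 24 libraries in the fit, and 0 to 4 with 1 library left out. The ZT20 count (794) became 380 without a filter and 479 with all 24 libraries, and 102 to 666 with 1 library left out. The ZT0 count (2004) became 1232 without a filter and 1098 with median-of-ratios scaling, and 205 to 1901 with 1 library left out. The window difference (15) became 28 without a filter, 9 at a mean of at least 5 TPM and 43 against ZT8, ZT12 and ZT16 only, and 9 to 44 with 1 library left out. The cause of these changes was not tested.

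The replicate letters were not shown to pair the libraries. Correlations of deviations between groups ran from 0.12 to 0.23 among WT ZT0, WT ZT20 and KO ZT0. Those with KO ZT20 ran from -0.09 to 0.02. On the second principal component of the 8 libraries (17.0% of variance), A and B stood at -28.9 and 19.1 in WT ZT0. They stood at -28.1 and 21.1 in WT ZT20, at -22.3 and 22.5 in KO ZT0 and at 13.4 and 3.09 in KO ZT20. Part of the variation thus followed the letter outside KO ZT20, and its source was not tested. With the replicate block the counts were 3467, 1, 552, 1675 and 16 in the order above. Over the genes named and all alternatives, no called direction reversed, 3254 values kept their side of the threshold, 267 lost it and 86 gained it. Depth is unknown, so genes near 1 TPM, and short genes such as Gm21028 also at higher TPM, carry a counting error that cannot be stated.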

Other observations

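Matrix genes were set apart in 1 library. Col4a1, a basement membrane collagen, was at 91.0 TPM in KO ZT0 replicate A and between 45.6 and 46.8 TPM in the other 3 KO libraries, against 33.5 to 37.6 TPM in WT. Col1a1, a fibrillar collagen, was at 13.1 TPM in that library and between 2.56 and 4.20 TPM in the other 3, against 5.55 to 7.66 TPM in WT. Fn1, the matrix protein fibronectin, was at 11.4 TPM in that library and between 3.51 and 4.19 TPM in the other 3, against 9.64 to 11.6 TPM in WT. None of these genes passed the genotype test with all 8 libraries. Without KO ZT0 replicate A each passed (limma), with adjusted p = 0.000598 for Fn1 and 0.0218 for Col1a1. There Fn1 and Col1a1 were lower in KO and Col4a1 higher. That fit was picked out because the library stood apart in these same genes, so its p-values are no separate support. Of the 8 fits that left out 1 library, Fn1 and Col1a1 passed in 1 and Col4a1 in 2.

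The male-high sum at the other 4 times was between 36382 and 43879 TPM in the 8 WT libraries and between 10642 and 38012 TPM in the 8 KO libraries. The highest of these KO values was that of the library labelled KO ZT4 replicate A and the lowest that of the library labelled KO ZT12 replicate A, and the other 6 lay between 15370 and 32040 TPM. The female-high sum there was between 3.65 and 22.4 TPM in WT and between 6.99 and 165 TPM in KO. The value of 6.99 TPM was that of KO ZT4 replicate A, and the other 7 KO libraries lay between 93.7 and 165 TPM.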
